A study of Rattus norvegicus with 12 samples.

Results

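HG-Res-SIRT7-Inh cells were compared with HG-Res cells, so that the groups differed by the addition of an inhibitor to resveratrol. The HG-Res group was kept for 48 h in 100 mM glucose with 5 µM resveratrol. The HG-Res-SIRT7-Inh group had the same glucose and resveratrol for the same time, and in addition 5 µM of SirReal2, which the labels call a SIRT7 inhibitor. Each group has 3 libraries, labelled as biological replicates of wild-type H9C2 cells. The comparison took every gene of the deposited table of these groups, 20263 rows, which is every gene that the series lists for its high-glucose groups, and 6 of the series' 12 libraries. Of the 20263 genes, 12854 passed a filter on low values and were tested. The other 7409 were not tested, and 3905 genes were at 0 in all 6 libraries. The HG group, 3 libraries in 100 mM glucose without either compound, entered the same fit and is given beside the results. The Ctrl group in 5.5 mM glucose was not part of the comparison. No group analysed here received the inhibitor without resveratrol.

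Sirtuins are enzymes that use NAD to remove acetyl and other acyl groups from proteins. SIRT7 sits in the nucleolus and nucleus, where it is known for acting on RNA polymerase I transcription and on histone H3. SIRT2 is mainly cytoplasmic and is known as a deacetylase of tubulin. SirReal2 is generally known as a SIRT2 inhibitor, so the label's target and the compound's usual description differ, and enzyme activity was not measured here. Resveratrol, a polyphenol from grapes and other plants, is commonly used to activate sirtuins, in particular SIRT1. Type I interferon acts through a receptor pair, IFNAR1 and IFNAR2, and transcription factors that include STAT2 and IRF9, and turns on a large set of antiviral genes. These interferon-stimulated genes make up the largest list examined here.

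The species of the values conflicts with the labels. H9C2 is a line from embryonic rat heart, and the submitters' processing notes name the rat build rn6, whereas all 20263 identifiers carry Ensembl's human prefix. The files pair no identifier with a name, so gene symbols were given to identifiers from knowledge of Ensembl's human annotation. For each of the 24 human chromosomes that hold a named gene, the named genes formed 1 block of rows in the table. Of 6 listed genes known from humans and without a counterpart in the rat, all passed the filter, among them MICA, a stress ligand of the major histocompatibility region, at 141, 154 and 154 CPM in HG-Res, and CD58, an adhesion ligand, at 60.3, 51.8 and 48.6 CPM. CPM are the reads of a gene scaled to the total of its library. Since gene length is not taken into account, levels are compared between libraries and not between genes.

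The markers of the labelled cell type were low. Of 16 cardiomyocyte markers, 3 (MYH6, NKX2-5 and MYBPC3, a myosin heavy chain, a cardiac transcription factor and a sarcomere protein) were at 0 in all 6 libraries, and 4 passed the filter. Of these 4, ACTN2 and NPPB fell (limma adjusted p = 0.00451 and 0.0324), and NPPB lost its call in 8 of 19 alternatives. The 16 summed to 10.0 to 14.2 CPM in HG-Res and to 3.82 to 8.54 CPM in HG-Res-SIRT7-Inh. The natriuretic peptide gene NPPB was at 9.61, 7.27 and 6.05 CPM in HG-Res and at 4.73, 2.76 and 1.45 CPM in HG-Res-SIRT7-Inh, and all 9 markers of skeletal myoblasts together stayed at or under 1.87 CPM. All 8 mesenchymal markers passed the filter, with VIM, the intermediate filament vimentin, at 4789.7, 4653 and 4622 CPM in HG-Res. VIM was the 1 mesenchymal marker called, as a fall (limma adjusted p = 0.0181), and it lost that call in 8 of 19 alternatives. Among epithelial markers, KRT18, a keratin, was at 925, 979 and 939 CPM in HG-Res, whereas GRHL2, an epithelial transcription factor, was at 0. Of 7 tested epithelial markers 2 fell, the keratins KRT7 and KRT19 (limma adjusted p = 0.00395 and 0.00831), where 4.19% of all tested genes fell. The 11 listed summed to 1082 to 1142 CPM in HG-Res and to 643 to 936 CPM with the inhibitor. Most of the HG-Res sum was KRT18, whose change was not called (limma adjusted p = 0.06) and passed in 4 of 19 alternatives. The 7 tested epithelial markers had a median log2 change of -0.09, with 5 lower and 2 higher. The part that any change of cell type played in the results was not tested. In these bulk libraries, fewer cells of a type and less RNA per cell cannot be told apart.

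The libraries held 30290000 to 33170000 reads, as recovered from the values. Replicates were closest in HG-Res, where the median SD over the tested genes was 0.071 on the log2(CPM + 1) scale. It was 0.132 in HG and 0.242 in HG-Res-SIRT7-Inh. Within HG-Res-SIRT7-Inh, replicate 3 stood apart from replicate 1. The chi-square of their reads per degree of freedom was 172.8, against 5.26 to 9.33 among HG-Res pairs. HG replicate 2 also stood apart from HG replicate 3, at 70.75. Its deviations from the group mean ran opposite to those of HG-Res-SIRT7-Inh replicate 3, with a correlation of -0.69. They correlated at 0.78 with those of HG-Res-SIRT7-Inh replicate 1. HG replicate 3 correlated at 0.64 with HG-Res-SIRT7-Inh replicate 3. The cause of this shared pattern across groups was not tested. HG-Res-SIRT7-Inh replicate 3 and HG replicate 2, left out together in 1 alternative, are called the outlying pair. The p-values measure the spread between libraries that the labels call biological replicates. Calls and counts in many lists changed when single libraries were left out, and values without those libraries are given.

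Among the genes that passed the test, more fell than rose, while over all tested genes the balance was the reverse, with 7072 changes above 0 and 5782 below. In limma with Benjamini-Hochberg adjustment over all tested genes, 780 genes (6.07%) were called at an adjusted p of 0.05: 538 (4.19% of those tested) fell and 242 (1.88%) rose. All 780 had replicate values that did not overlap between the groups, which was so for 33.7% of all tested genes (17.7% higher and 16.0% lower with the inhibitor). The larger changes were mostly falls, since 132 genes (1.03%) changed at least 2-fold and 119 of these fell. Genes that fell had a median log2 change of -0.70, and genes that rose one of 0.59, while the median of all tested genes was 0.040. Taken library by library against the HG-Res mean, the median change of the genes that fell was -0.62, -0.64 and -0.81 in HG-Res-SIRT7-Inh replicates 1, 2 and 3, and that of the genes that rose was 0.51, 0.57 and 0.66. These medians describe genes chosen by the same contrast. The number of called genes depended on single libraries. It was 1778 without HG-Res-SIRT7-Inh replicate 1 (836 rose, 942 fell). Without replicate 2 of that group it was 348 (65 rose, 283 fell), and without its replicate 3 it was 1175 (443 rose, 732 fell). Without HG-Res replicates 1, 2 and 3 it was 276, 280 and 278 (42, 51 and 50 rose, 234, 229 and 228 fell). Without HG replicates 1, 2 and 3 it was 457, 902 and 602 (104, 336 and 166 rose, 353, 566 and 436 fell). It was 2412 without both HG-Res-SIRT7-Inh replicate 3 and HG replicate 2. In that last setting 1236 genes rose and 1176 fell, so the excess of falls did not hold there. Of the 780 genes, 772 were still called. Both of these libraries stood apart from others of their groups, so leaving them out can narrow the spread that the test uses. That setting is therefore no independent check of the calls. All settings that left out libraries tested the same 12854 genes. List counts given below for a setting are to be read beside its counts over all genes.

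**Figure D1:**
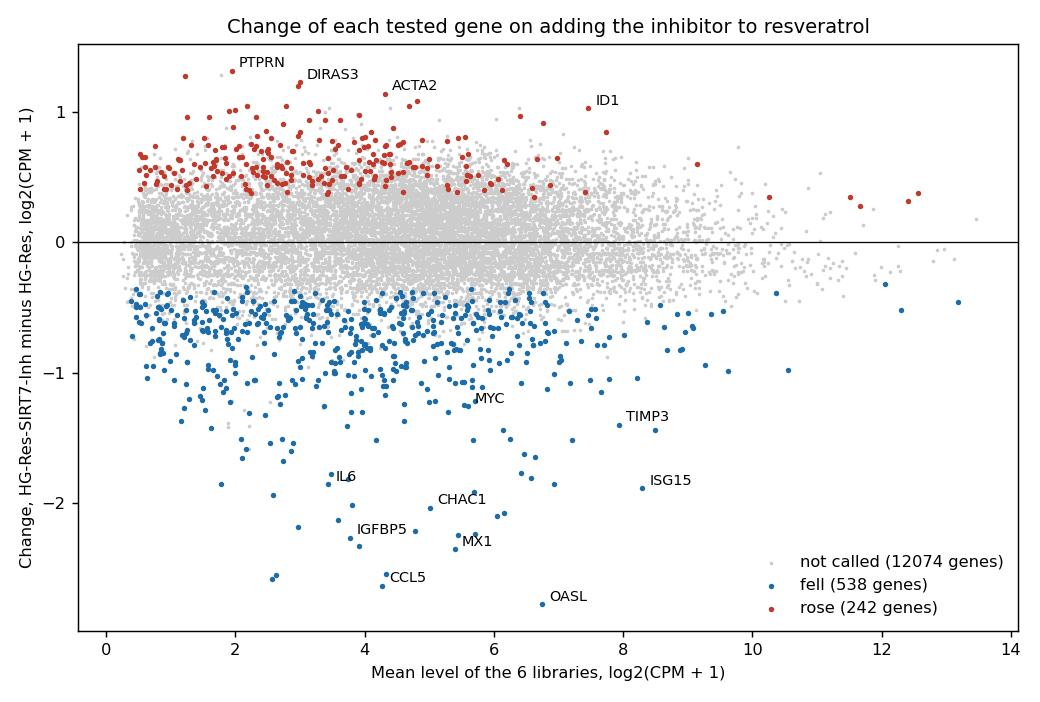
Each point is 1 of the 12854 tested genes, with the mean level of the 6 libraries on the x axis and the change on adding the inhibitor on the y axis, both in log2(CPM + 1). Genes that fell (538, blue) reach -2.78, while genes that rose (242, red) reach 1.32.

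Many interferon-stimulated genes fell. Of 58 listed, 57 were tested, 32 fell and none rose, where 4.19% of all tested genes fell. Their median log2 change was -0.66, against 0.040 for all tested genes, and 47 of the 57 had lower replicate values that did not overlap, as did 16.0% of all tested genes. OASL, an antiviral protein related to the 2'-5'-oligoadenylate synthetases, showed the largest fall of any named gene. It was at 179.9, 191 and 187 CPM in HG-Res and at 32.1, 26.6 and 21.0 CPM in HG-Res-SIRT7-Inh. Every library with the inhibitor lay far below every HG-Res library, and also below the HG libraries, which were at 69.7, 73.7 and 65.0 CPM. The log2 difference was -2.78 ± 0.14 (SE, limma adjusted p = 6.73e-06).

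The 2'-5'-oligoadenylate synthetase OAS2, which makes the signal that activates RNase L, and the dynamin-like antiviral GTPases MX1 and MX2 fell as well. OAS2 was at 30.9, 34.3 and 35.4 CPM in HG-Res and 4.57, 5.01 and 5.12 CPM with the inhibitor, a log2 difference of -2.55 ± 0.10 (SE, limma adjusted p = 3.21e-06). MX1 was at 67.3, 71.2 and 70.0 CPM in HG-Res and 13.9, 13.2 and 11.3 CPM with the inhibitor, a log2 difference of -2.36 ± 0.10 (SE, limma adjusted p = 3.89e-06). For MX2 the libraries held 10.9, 11.3 and 13.3 CPM and 1.5, 2.28 and 1.72 CPM, a change of -2.19 ± 0.13 (SE, limma adjusted p = 1.61e-05). In each of these genes the HG libraries lay between the other groups. MX1, for example, was at 24.6, 23.7 and 23.5 CPM in HG. ISG15, a ubiquitin-like modifier, and the IFIT genes, whose products bind foreign RNA, were picked for mention after their values were seen. ISG15 was at 499, 487 and 488 CPM in HG-Res and 157, 156 and 93.6 CPM with the inhibitor, with replicate 3 lowest, and changed by -1.89 ± 0.19 (SE, limma adjusted p = 0.000525). IFIT2, IFIT3 and IFIT1 changed by -1.92 ± 0.11, -1.86 ± 0.13 and -1.52 ± 0.13 (SE; limma adjusted p = 1.61e-05, 4.65e-05 and 0.000133).

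The same list can be read in the other comparisons of the fit, which share libraries with this one and so do not add independent evidence. In HG-Res against HG, 14 of the 57 rose and none fell, where 0.327% of all tested genes rose. In HG-Res-SIRT7-Inh against HG, 15 fell and none rose, where 6.50% of all tested genes fell and 4.27% rose. The median log2 changes of the list were 0.59 and -0.20 in these comparisons. The fall against HG-Res was seen in every library with the inhibitor, with list medians of -0.74, -0.72 and -0.68 in replicates 1, 2 and 3. The number that fell was 20 on leaving out HG-Res replicate 1, 21 on leaving out HG-Res-SIRT7-Inh replicate 2 or HG-Res replicate 2 or 3 and 50 without the outlying pair. Summed leukocyte markers moved in the same direction. The 8 markers summed to 193 to 198 CPM in HG-Res and to 108 to 158 CPM with the inhibitor, nearly all of it from CD68, a lysosomal protein, and CD14, a receptor for bacterial lipopolysaccharide. CD3E and TYROBP, which define T cells and myeloid or natural killer cells, were at 0 in all 6 libraries, and PTPRC, the pan-leukocyte marker CD45, had a mean of 0.36 CPM in HG-Res.

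**Figure D2:**
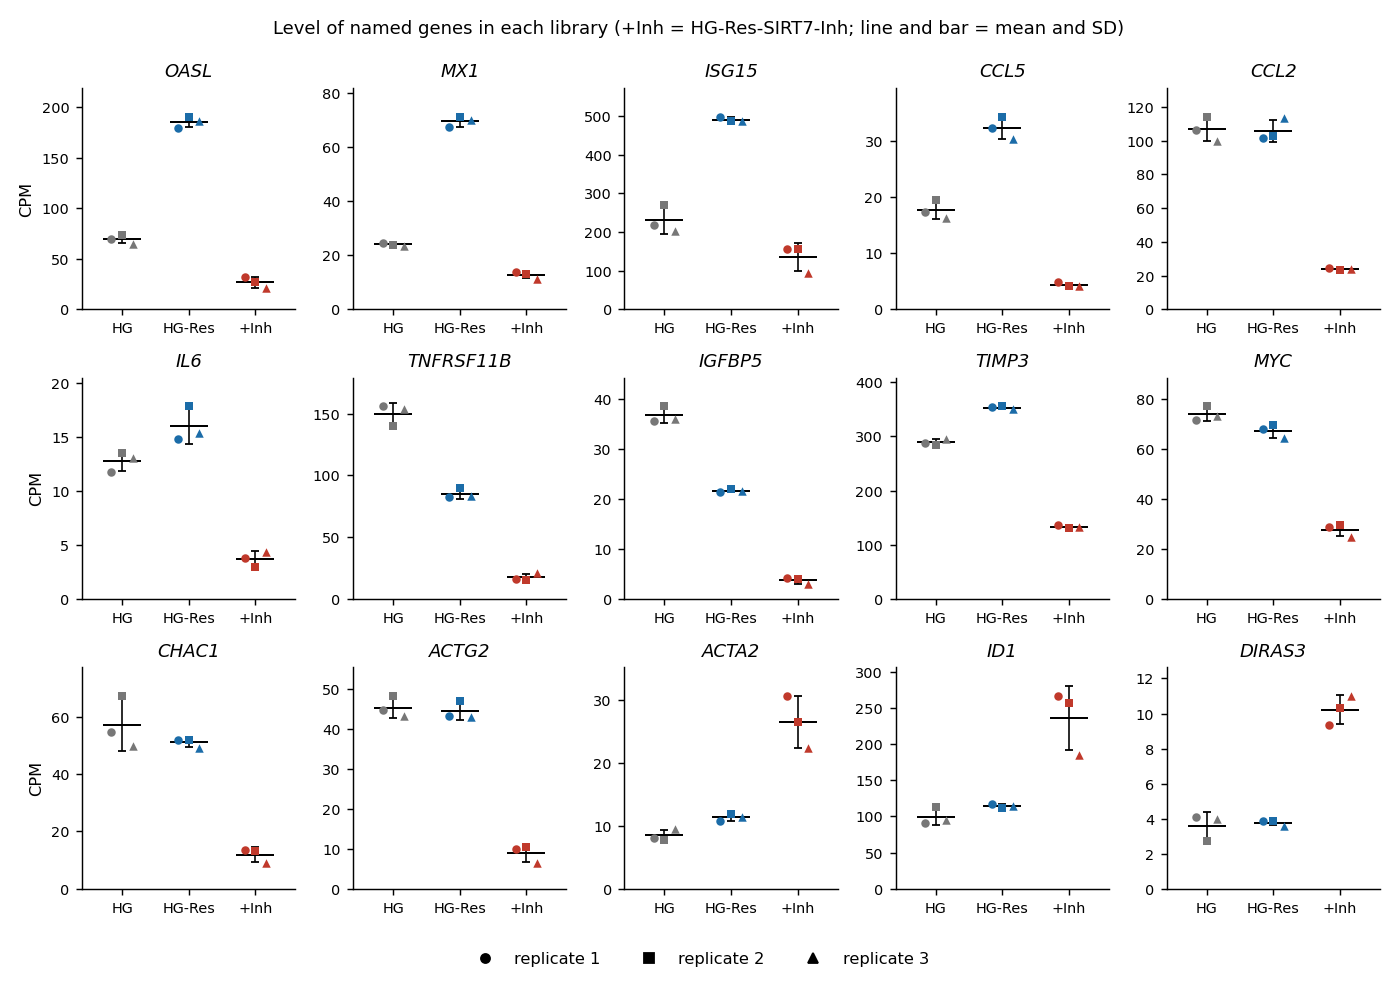
Level in CPM of 15 genes in each library of HG-Res-SIRT7-Inh (+Inh), HG-Res and HG. Symbols give the replicate number, and the line and bar give the mean and SD of 3 libraries. The libraries with the inhibitor lie below all HG-Res libraries for OASL to ACTG2, and above them for ACTA2, ID1 and DIRAS3.

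None of the 12 tested interferon ligands, receptors and kinases passed limma at the adjusted threshold, or voom on the recovered reads. An unadjusted limma p below 0.05 was seen in 4 of the 12, and in 3167 of all 12854 tested genes. The median log2 change of the 12 was 0.13. Rises numbered 1 on leaving out HG-Res-SIRT7-Inh replicate 3, 2 on leaving out HG-Res-SIRT7-Inh replicate 1 and 4 without the outlying pair, and falls 1 on leaving out HG-Res-SIRT7-Inh replicate 1 or 3 or HG replicate 2 and 1 without the outlying pair. The ligand genes IFNL1, IFNL3 and IFNG were at 0 in all 6 libraries, and IFNB1 was at 0 in HG-Res and at a mean of 0.0567 CPM with the inhibitor. The receptor gene IFNAR2 was at 18.1, 18.5 and 20.1 CPM in HG-Res and at 23.8, 25.2 and 31.7 CPM with the inhibitor, without overlap, but its change of 0.48 ± 0.12 (SE, limma adjusted p = 0.0506) missed the threshold. It passed without HG-Res-SIRT7-Inh replicate 1 or 3 (limma adjusted p between 0.0288 and 0.0353), and also with a filter of 1 CPM or a pseudocount of 0.1 (limma adjusted p = 0.0495 and 0.049). IFNAR1 was at 80.6, 72.2 and 64.3 CPM and 68.2, 107 and 138 CPM, with a wide spread among the inhibitor libraries. Of the transcription factors, STAT2 was at 95.2, 103 and 106 CPM and 89.5, 79.3 and 73.1 CPM, a change of -0.33 ± 0.10 (SE, limma adjusted p = 0.099) that passed without HG-Res-SIRT7-Inh replicate 1 (limma adjusted p = 0.0378). IRF9 stayed under the filter, with means of 0.26 and 0.147 CPM. SOCS1, an inhibitor of the receptor kinases and itself an interferon target, was at 17.2, 15.0 and 13.7 CPM in HG-Res and 10.4, 8.93 and 4.82 CPM with the inhibitor, a change of -0.90 ± 0.23 (SE, limma adjusted p = 0.0506). SOCS1 passed without HG-Res-SIRT7-Inh replicate 1 or 3 or HG replicate 2 (limma adjusted p between 0.0217 and 0.0431), and with median-of-ratios scaling (limma adjusted p = 0.0376).

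Of 13 tested sensors of foreign nucleic acid and their adaptors, 2 fell and none rose, where 4.19% of all tested genes fell. The median of the list was -0.26. AIM2, a sensor of cytosolic DNA, was at 1.24, 1.08 and 1.54 CPM in HG-Res and 0.09, 0.35 and 0.36 CPM with the inhibitor, a log2 difference of -0.85 ± 0.13 (SE, limma adjusted p = 0.00562). IRF1, a transcription factor of interferon responses, was at 29.7, 29.8 and 30.1 CPM and 23.3, 21.8 and 17.2 CPM, a change of -0.52 ± 0.12 (SE, limma adjusted p = 0.0351). The call of IRF1 was lost without any HG-Res library, HG replicate 1 or 3, or HG-Res-SIRT7-Inh replicate 2, with limma adjusted p between 0.0584 and 0.137. MAVS, the mitochondrial adaptor of RNA sensors, had means of 40.7 and 41 CPM and did not pass. The count of falls was 1 on leaving out HG-Res-SIRT7-Inh replicate 2 or any HG-Res library or HG replicate 1 or 3, 4 on leaving out HG replicate 2, 5 on leaving out HG-Res-SIRT7-Inh replicate 1 and 6 without the outlying pair. An unadjusted limma p below 0.05 was seen in 1 of the 21 tested genes of MHC class I presentation, and in 3167 of all 12854 tested genes. None of the 21 passed limma at the adjusted threshold, or voom on the recovered reads, and their median was -0.09. Falls there numbered 1 on leaving out HG-Res-SIRT7-Inh replicate 1 or 3 and 1 without the outlying pair.

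Chemokines fell in part. Of 15 tested, 6 fell and none rose, where 4.19% of all tested genes fell, and the median log2 change was -0.43. CCL5, which attracts T cells and monocytes, was at 32.4, 34.4 and 30.4 CPM in HG-Res and at 4.82, 4.17 and 4.13 CPM with the inhibitor, a log2 difference of -2.64 ± 0.11 (SE, limma adjusted p = 3.21e-06). CCL2, a monocyte attractant, was at 101, 103 and 114 CPM and 24.5, 23.2 and 24.1 CPM, a change of -2.10 ± 0.10 (SE, limma adjusted p = 4.87e-06). In both genes the libraries of each group kept close together and the groups lay well apart. For CCL2 the HG libraries, at 106, 114 and 99.9 CPM, were level with HG-Res. CXCL1, a neutrophil attractant, was at 21.2, 17.0 and 17.7 CPM and 5.26, 7.58 and 8.39 CPM, a change of -1.30 ± 0.16 (SE, limma adjusted p = 0.00135). CXCL12, the ligand of CXCR4, had means of 195 ± 0.781 CPM in HG-Res and 91.5 ± 4.69 CPM with the inhibitor (SD, n = 3) and also fell. CCL7 and CXCL8, further members that fell, lost their calls without HG-Res replicate 3 (limma adjusted p = 0.0892 and 0.0778). CCL7 also lost it without HG-Res replicate 2 (0.109), CXCL8 without replicate 1 (0.0573), and both without HG-Res-SIRT7-Inh replicate 2 (0.0944 and 0.0635). Rises among the chemokines numbered 1 on leaving out HG-Res-SIRT7-Inh replicate 3 and 1 without the outlying pair.

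Of 19 tested interleukins, receptors and growth factors of immune cells, 5 fell and none rose, where 4.19% of all tested genes fell. IL6, the acute-phase cytokine, was at 14.8, 17.8 and 15.3 CPM in HG-Res and at 3.82, 2.95 and 4.39 CPM with the inhibitor, a log2 difference of -1.86 ± 0.13 (SE, limma adjusted p = 5.31e-05). Its receptor chains IL6R and IL6ST had changes of 0.15 ± 0.10 and 0.00 ± 0.25 (SE; limma adjusted p = 0.372 and 0.992). IL1B, LIF, CSF1 and IL24 were the other members that fell, by smaller amounts, and the cytokine gene TNF was at 0 in all 6 libraries. IL1B, an inflammasome product, went from 11.8 ± 1.29 to 6.59 ± 1.35 CPM (SD, n = 3), and it was no longer called when HG-Res replicate 2 or 3 was left out (limma adjusted p = 0.0712 and 0.0785). LIF lost its call without any HG-Res library (limma adjusted p between 0.0576 and 0.0689), IL24 without HG-Res-SIRT7-Inh replicate 2 or HG-Res replicate 2 or 3 (limma adjusted p between 0.0642 and 0.0798) and CSF1 without HG-Res-SIRT7-Inh replicate 2 or any HG-Res library or HG replicate 1 or 3 (limma adjusted p between 0.0606 and 0.155). Falls in the list numbered 1 on leaving out HG-Res replicate 2 or 3 and 3 on leaving out HG-Res-SIRT7-Inh replicate 2 or HG-Res replicate 1, and rises 2 on leaving out HG-Res-SIRT7-Inh replicate 1. The list as a whole was centred near 0, with a median log2 change of -0.06.

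NF-kB is a transcription factor family held inactive by inhibitor proteins and switched on by cytokines. Of 26 tested subunits and feedback targets, 5 fell (TNFAIP3, TNIP1, NFKBIZ, ICAM1 and MAP3K14) and none rose, with a median of -0.31. Over all tested genes, 4.19% fell. TNFAIP3, the feedback inhibitor A20, was at 5.28, 5.69 and 5.89 CPM in HG-Res and 2.54, 1.89 and 2.11 CPM with the inhibitor, a log2 difference of -1.06 ± 0.11 (SE, limma adjusted p = 0.000487). The subunit RELA and the inhibitor NFKBIA had changes of -0.19 ± 0.14 and 0.28 ± 0.11 (SE; limma adjusted p = 0.385 and 0.156). Of the calls, MAP3K14 was lost without any HG-Res library (limma adjusted p between 0.0574 and 0.0809), TNIP1 without HG-Res-SIRT7-Inh replicate 2 or any HG-Res library or HG replicate 1 or 3 (limma adjusted p between 0.0569 and 0.153), NFKBIZ without HG-Res-SIRT7-Inh replicate 2 or any HG-Res library or HG replicate 1 or 3 (limma adjusted p between 0.0551 and 0.133) and ICAM1 without HG-Res-SIRT7-Inh replicate 2 or any HG-Res library or any HG library (limma adjusted p between 0.052 and 0.175). The number that fell was 1 on leaving out any HG-Res library, 2 on leaving out HG-Res-SIRT7-Inh replicate 2 or HG replicate 1 or 3 and 9 without the outlying pair, and the number that rose 2 without the outlying pair.

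Osteoprotegerin, encoded by TNFRSF11B, is a soluble decoy receptor of the TNF family and was the 1 member that fell of 20 tested in its list, close to the 4.19% of all tested genes that fell. It was at 82.5, 90.0 and 83.3 CPM in HG-Res and at 16.4, 15.1 and 20.6 CPM with the inhibitor, a log2 difference of -2.24 ± 0.12 (SE, limma adjusted p = 9.43e-06). The HG libraries were higher still, at 156, 140.3 and 154 CPM. The death ligand gene TNFSF10 was at 11.4, 10.2 and 9.46 CPM and 2.97, 5.43 and 6.73 CPM, without overlap, but missed the threshold at -0.96 ± 0.25 (SE, limma adjusted p = 0.0529). It passed without HG-Res-SIRT7-Inh replicate 3 or HG replicate 2 or 3 (limma adjusted p between 0.0236 and 0.0469), and with median-of-ratios scaling (limma adjusted p = 0.0403). Falls in the list numbered 2 on leaving out HG-Res-SIRT7-Inh replicate 1 or HG replicate 2 or 3, 3 on leaving out HG-Res-SIRT7-Inh replicate 3 and 4 without the outlying pair, and rises 1 on leaving out HG-Res-SIRT7-Inh replicate 1 or 3 and 2 without the outlying pair. PTX3, a soluble pattern recognition protein, was at 119.9, 112 and 111 CPM in HG-Res and 23.1, 26.9 and 29.6 CPM with the inhibitor, a change of -2.08 ± 0.13 (SE, limma adjusted p = 2.52e-05).

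Among contractile genes and targets of SRF, a transcription factor whose activity follows the state of actin, falls outnumbered rises. Of 21 tested, 10 fell and 1 rose, where 4.19% of all tested genes fell and 1.88% rose. The median log2 change of the list was -0.47. ACTG2, the smooth muscle gamma-actin, was at 43.1, 46.9 and 43.0 CPM in HG-Res and 9.89, 10.4 and 6.40 CPM with the inhibitor, a log2 difference of -2.22 ± 0.16 (SE, limma adjusted p = 5.06e-05). ACTA2, the smooth muscle alpha-actin, moved the other way. It was at 10.8, 11.9 and 11.3 CPM in HG-Res and 30.6, 26.5 and 22.4 CPM with the inhibitor, a change of 1.14 ± 0.13 (SE, limma adjusted p = 0.00097). In neither gene did the groups overlap. Actin genes are near copies of each other in their coding parts, so how reads were shared among them is uncertain.

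ANKRD1, a stretch-responsive ankyrin repeat protein, was at 13.8, 13.7 and 15.7 CPM and 6.39, 5.68 and 8.29 CPM, a change of -0.99 ± 0.14 (SE, limma adjusted p = 0.00295). The secreted matricellular protein CCN2 was at 71.9, 69.9 and 71.5 CPM and 31.7, 36.5 and 47.0 CPM, a change of -0.89 ± 0.14 (SE, limma adjusted p = 0.00509). The abundant cytoskeletal actins, picked after their values were seen, fell less. ACTB was at 10568, 10820.1 and 10634 CPM in HG-Res and 8872, 8126 and 6482 CPM with the inhibitor, and ACTG1 changed by -0.52 ± 0.11 (SE, limma adjusted p = 0.0243). Their calls were lost without any HG-Res library, HG replicate 1 or HG-Res-SIRT7-Inh replicate 2, and that of ACTB also without HG replicate 3, with limma adjusted p between 0.0511 and 0.127 for ACTB and 0.0504 and 0.103 for ACTG1. SRF itself had a change of -0.50 ± 0.14 (SE, limma adjusted p = 0.0727), which passed without HG-Res-SIRT7-Inh replicate 1 (limma adjusted p = 0.0431). The number of list members that fell was 4 on leaving out HG-Res-SIRT7-Inh replicate 2 or any HG-Res library, 6 on leaving out HG replicate 1 and 16 without the outlying pair.

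Extracellular matrix and TGF-beta genes fell in part. Of 32 tested, 9 fell and none rose, where 4.19% of all tested genes fell, and the list had a median of -0.32. TIMP3, a tissue inhibitor of metalloproteinases, was at 354, 355 and 349.9 CPM in HG-Res and at 136, 130.1 and 132 CPM with the inhibitor, a log2 difference of -1.40 ± 0.08 (SE, limma adjusted p = 1.24e-05). Both groups were tight in TIMP3, and no library came near the other group. Fibronectin, FN1, fell from 611 ± 9.4 to 346 ± 32.7 CPM (SD, n = 3; limma adjusted p = 0.000862), while the main fibrillar collagen chain COL1A1 was at 1177, 1169 and 1110.4 CPM and 1108, 1022 and 631 CPM and did not pass (limma adjusted p = 0.242). The ligand TGFB1 and the receptor TGFBR1 had changes of -0.09 ± 0.19 and 0.31 ± 0.21 (SE; limma adjusted p = 0.768 and 0.365), and TGFB2 one of -0.62 ± 0.22 (SE, limma adjusted p = 0.132), which passed without HG replicate 2 (limma adjusted p = 0.0398). The count of falls was 5 on leaving out HG-Res replicate 1 or 2 and 15 without the outlying pair. The 8 mesenchymal markers summed to 6757 to 6989 CPM in HG-Res and to 5271 to 5664 CPM with the inhibitor, and their part in these values was not tested. Most of the HG-Res sum was VIM, and COL1A1 and COL1A2 belong to both lists.

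Several genes outside the lists were among the largest falls. IGFBP5, which binds insulin-like growth factors, was at 21.4, 21.9 and 21.5 CPM in HG-Res and 4.23, 3.92 and 2.97 CPM with the inhibitor, a log2 difference of -2.27 ± 0.12 (SE, limma adjusted p = 6.73e-06). CEMIP, a protein needed to break down hyaluronan, was at 18.2, 18.3 and 19.1 CPM and 3.82, 3.60 and 3.04 CPM, a change of -2.13 ± 0.10 (SE, limma adjusted p = 4.87e-06). Both were higher in HG than in HG-Res, at 35.6, 38.5 and 36.1 CPM for IGFBP5 and 33.0, 32.3 and 32.3 CPM for CEMIP. RGS4, which turns off G protein signals, was at 70.0, 70.4 and 73.7 CPM and 12.4, 13.6 and 16.9 CPM, a change of -2.25 ± 0.12 (SE, limma adjusted p = 9.43e-06). TRBC2, a constant region of the T cell receptor beta chain, was at 27.1, 22.1 and 22.7 CPM and 4.76, 5.23 and 2.38 CPM, a change of -2.33 ± 0.21 (SE, limma adjusted p = 0.000229), with CD3E at 0 in the same libraries. TRBC2 has a near-identical neighbour, so how its reads were assigned is uncertain. In the same range of change, 1 identifier that was given no name was passed over.

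Genes of the immediate early response, which follow growth factor signals through the ERK pathway, moved in both directions. Of 24 tested, 9 fell and 2 rose, where 4.19% of all tested genes fell and 1.88% rose. MYC, a growth-promoting transcription factor, was at 68.0, 69.5 and 64.1 CPM in HG-Res and 28.6, 29.4 and 24.6 CPM with the inhibitor, a log2 difference of -1.26 ± 0.10 (SE, limma adjusted p = 0.000122). FOSL1, an AP-1 subunit, was at 226, 224 and 205 CPM and 88.8, 82.9 and 58.4 CPM, a change of -1.52 ± 0.15 (SE, limma adjusted p = 0.000476). DUSP4, a phosphatase that turns off ERK and is induced by it, was at 17.3, 19.3 and 18.1 CPM and 5.95, 6.87 and 6.01 CPM, a change of -1.41 ± 0.10 (SE, limma adjusted p = 4.69e-05). In all 3 genes the inhibitor libraries lay well below both other groups, and the HG libraries were near HG-Res, for MYC at 71.4, 76.8 and 73.0 CPM. KLF4 and JUN, both transcription factors, also fell, with changes of -1.05 ± 0.15 and -0.93 ± 0.13 (SE; limma adjusted p = 0.00352 and 0.00395). FOS and EGR1, the fastest responders of the class, rose instead. EGR1 was at 24.4, 25.9 and 23.9 CPM in HG-Res and 37.8, 34.9 and 35.1 CPM with the inhibitor, a change of 0.52 ± 0.09 (SE, limma adjusted p = 0.0127), and FOS went from 2.74 ± 0.489 to 5.24 ± 0.878 CPM (SD, n = 3; limma adjusted p = 0.012). Without HG-Res replicate 1 or 3 neither kept its call (limma adjusted p = 0.0726 and 0.0785 for EGR1, 0.0611 and 0.0638 for FOS). EGR1 also lost it without HG-Res replicate 2 (0.0554) and FOS without HG-Res-SIRT7-Inh replicate 2 (0.054). Rises in the list numbered 0 on leaving out HG-Res replicate 1 or 3, 1 on leaving out HG-Res-SIRT7-Inh replicate 2 or HG-Res replicate 2 and 4 without the outlying pair.

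Of 40 tested genes of the cell cycle and DNA replication, 1 fell, a smaller share than the 4.19% of all tested genes that fell. None rose and the median was 0.12. The gene that fell was CCND1, cyclin D1, which links growth signals to the start of the cycle. It was at 55.5, 50.8 and 56.7 CPM in HG-Res and 23.8, 23.3 and 17.6 CPM with the inhibitor, a log2 difference of -1.30 ± 0.13 (SE, limma adjusted p = 0.000446). CDK1, the mitotic kinase, was at 295, 259 and 269.8 CPM and 285, 397 and 609.9 CPM and TOP2A, a topoisomerase of dividing cells, at 414, 378 and 371 CPM and 430.0, 563 and 922 CPM, with replicate 3 highest in both and no call (limma adjusted p = 0.204 and 0.161). CDK1 passed without HG-Res-SIRT7-Inh replicate 1 (limma adjusted p = 0.0449) and TOP2A without HG-Res-SIRT7-Inh replicate 1 (limma adjusted p = 0.0406). Rises in the list numbered 5 on leaving out HG-Res-SIRT7-Inh replicate 1 and 4 without the outlying pair. Of all 12854 tested genes, 836 and 1236 rose in these settings.

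ATF4 is the transcription factor of the amino acid and integrated stress response, and part of its target list fell. Of 28 tested, 9 fell and none rose, where 4.19% of all tested genes fell, and the list had a median of -0.13. CHAC1, which degrades glutathione and is among the most sensitive ATF4 targets, was at 51.9, 51.9 and 49.2 CPM in HG-Res and 13.4, 13.2 and 8.81 CPM with the inhibitor, a log2 difference of -2.04 ± 0.17 (SE, limma adjusted p = 0.000122). ATF4 itself was at 583, 616 and 603 CPM and 394, 339 and 290.3 CPM, a change of -0.83 ± 0.11 (SE, limma adjusted p = 0.00295). STC2, the hormone stanniocalcin 2, was at 73.4, 73.0 and 69.5 CPM and 29.4, 30.9 and 30.7 CPM, a change of -1.22 ± 0.09 (SE, limma adjusted p = 5.31e-05). DDIT4, an inhibitor of mTORC1, changed by -1.08 ± 0.17 (SE, limma adjusted p = 0.006). ASNS, the asparagine synthetase and a standard target of the same factor, was at 86.0, 91.0 and 95.6 CPM and 106, 114 and 179 CPM, a change of 0.51 ± 0.18 (SE, limma adjusted p = 0.122) that did not pass, though it did without HG-Res-SIRT7-Inh replicate 1 (limma adjusted p = 0.0425). Falls in the list numbered 5 on leaving out HG-Res replicate 2 or 3, and rises 2 on leaving out HG-Res-SIRT7-Inh replicate 1 and 2 without the outlying pair. Of 20 tested ER chaperones and genes of the unfolded protein response, 1 fell, close to the 4.19% of all tested genes that fell. It was HERPUD1, at -0.46 ± 0.10 (SE, limma adjusted p = 0.0301), and it lost its call without any HG-Res library or HG replicate 1 or 3 (limma adjusted p between 0.0548 and 0.13). Among these 20, falls numbered 0 on leaving out any HG-Res library or HG replicate 1 or 3 and 2 without the outlying pair, and rises 1 on leaving out HG-Res-SIRT7-Inh replicate 1 and 2 without the outlying pair.

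Among 29 tested genes of glycolysis and hypoxia, 3 fell (ADM, HK2 and the glycolysis regulator PFKFB3) and none rose, with a median of -0.20. Over all tested genes, 4.19% fell. PFKFB3 lost its call without HG-Res-SIRT7-Inh replicate 2 or any HG-Res library or HG replicate 1 or 3 (limma adjusted p between 0.0723 and 0.172). The number that fell was 5 on leaving out HG-Res-SIRT7-Inh replicate 1 and 7 without the outlying pair, and the number that rose 1 on leaving out HG-Res-SIRT7-Inh replicate 3 and 1 without the outlying pair. ADM, the vasodilator peptide adrenomedullin, was at 147, 153 and 147 CPM in HG-Res and 57.1, 49.9 and 36.0 CPM with the inhibitor, a log2 difference of -1.65 ± 0.16 (SE, limma adjusted p = 0.000355). HK2, a hexokinase, was at 19.6, 19.1 and 19.2 CPM and 10.5, 10.2 and 11.9 CPM, a change of -0.78 ± 0.09 (SE, limma adjusted p = 0.00154). The kinase gene SGK1 was the member of the osmotic response list that fell, of 7 tested, from 37.4 ± 0.385 to 23.1 ± 2.28 CPM (SD, n = 3; limma adjusted p = 0.00617). Falls in that list numbered 2 on leaving out HG-Res-SIRT7-Inh replicate 1 and 2 without the outlying pair, and rises 1 on leaving out HG-Res-SIRT7-Inh replicate 1 or HG replicate 2 or 3 and 1 without the outlying pair. Of 8 tested metallothionein and zinc genes, 2 fell, a number that was 0 on leaving out any HG-Res library, 1 on leaving out HG-Res-SIRT7-Inh replicate 2 or HG replicate 1 or 3 and 4 on leaving out HG-Res-SIRT7-Inh replicate 1. They were the metal-binding protein genes MT2A, at 830.1, 794 and 783 CPM and 503, 484 and 300.1 CPM, and MT1X, which are near copies of each other. MT2A lost its call without HG-Res replicates 1, 2 or 3 (limma adjusted p = 0.0726, 0.063 and 0.0617), and MT1X without HG-Res-SIRT7-Inh replicate 2 or any HG-Res library or HG replicate 1 or 3 (limma adjusted p between 0.0541 and 0.172).

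**Figure D3:**
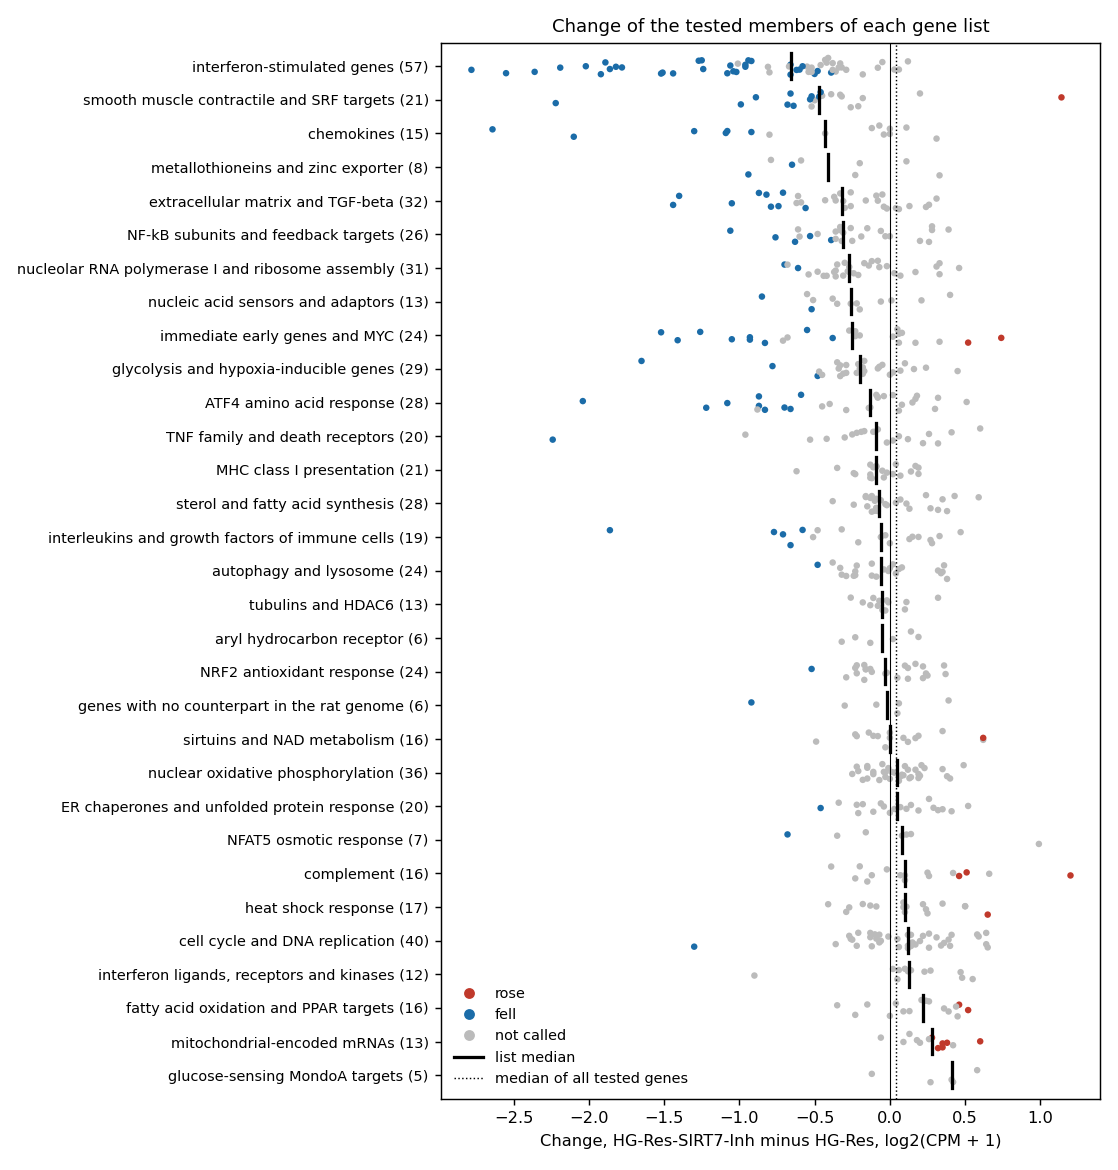
Each point is a tested member of a gene list, with its change on adding the inhibitor in log2(CPM + 1) on the x axis, and the number of tested members follows the name of each list. The bars are list medians, which run from -0.66 for interferon-stimulated genes to 0.41 for 5 MondoA targets, and the dotted line is the median of all tested genes, 0.040.

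The genes that rose were fewer and rose less. PTPRN, a protein of neuroendocrine secretory granules, showed the largest rise by the naming rule. It was at 1.37, 1.20 and 0.97 CPM in HG-Res and 5.85, 4.59 and 3.17 CPM with the inhibitor, a log2 difference of 1.32 ± 0.17 (SE, limma adjusted p = 0.00189). DIRAS3, a small GTPase described as a growth suppressor, was at 3.85, 3.89 and 3.60 CPM and 9.36, 10.3 and 11.0 CPM, a change of 1.23 ± 0.13 (SE, limma adjusted p = 0.000676). The ID genes encode inhibitors of helix-loop-helix transcription factors and are standard targets of BMP signals. ID1 was at 117, 111 and 114 CPM in HG-Res and 266, 257 and 185 CPM with the inhibitor, a change of 1.03 ± 0.15 (SE, limma adjusted p = 0.00408). ID2 was at 17.9, 15.7 and 16.4 CPM and 29.6, 33.9 and 48.5 CPM, a change of 1.09 ± 0.17 (SE, limma adjusted p = 0.006). Replicate 3 was the lowest inhibitor library for ID1 and the highest for ID2, and it stayed above every HG-Res library in both. ID3, named after its value was seen, rose as well, at 144, 155 and 148 CPM and 328, 308 and 194 CPM, but lost its call without any HG-Res library, HG replicate 1 or HG-Res-SIRT7-Inh replicate 2 (limma adjusted p between 0.0549 and 0.116).

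CTSO, a lysosomal cysteine protease, was at 3.50, 3.23 and 3.54 CPM and 7.36, 6.61 and 11.1 CPM, a change of 1.05 ± 0.18 (SE, limma adjusted p = 0.00841). The calls of the remaining large rises depended on single libraries. C5, the complement protein, was at 3.98, 3.41 and 3.67 CPM in HG-Res and 7.83, 8.44 and 13.8 CPM with the inhibitor, a change of 1.20 ± 0.21 (SE, limma adjusted p = 0.0102), and lost its call without HG-Res replicate 2 (limma adjusted p = 0.0521). GSTA4, a glutathione transferase, was at 16.8, 14.4 and 14.5 CPM and 23.3, 29.1 and 50.2 CPM, with replicate 3 far above the other libraries, and lost its call without any HG-Res library, HG replicate 1 or HG-Res-SIRT7-Inh replicate 2 (limma adjusted p between 0.0608 and 0.126). ERICH2 had a mean of 0.38 CPM in HG-Res, with replicate 2 at 0.00 CPM, and 2.31 CPM with the inhibitor. It lost its call without HG-Res replicate 1 or 2 (limma adjusted p between 0.0536 and 0.0543), with weights per group and with voom on the recovered reads. Over all alternatives its highest limma adjusted p was 0.114. DYNLT2B, a dynein light chain, had means of 1.93 and 5.16 CPM and lost its call without any HG-Res library or HG-Res-SIRT7-Inh replicate 2 (limma adjusted p between 0.0615 and 0.115). Of 16 tested complement genes, 3 rose (C5, CLU and CFI) and none fell, with a median log2 change of 0.10. Over all tested genes, 1.88% rose. The number that rose was 0 on leaving out HG-Res replicate 2 and 1 on leaving out HG-Res-SIRT7-Inh replicate 2 or HG-Res replicate 1 or 3 or HG replicate 1, and the number that fell 1 on leaving out HG-Res-SIRT7-Inh replicate 1. CLU lost its call without HG-Res-SIRT7-Inh replicate 2 or any HG-Res library or HG replicate 1 (limma adjusted p between 0.075 and 0.137), and CFI without HG-Res-SIRT7-Inh replicate 2 or any HG-Res library or HG replicate 1 (limma adjusted p between 0.0549 and 0.119).

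Mitochondrial-encoded mRNAs took a larger share of the reads with the inhibitor, 5.24% to 5.60%, against 4.60% to 4.66% in HG-Res and 4.07% to 4.38% in HG. Of the 13, 6 rose and none fell, where 1.88% of all tested genes rose, and the median log2 change was 0.28. MT-CO1, a cytochrome c oxidase subunit, was at 5145, 5258 and 5301 CPM in HG-Res and 6928, 6516 and 6970.2 CPM with the inhibitor, a change of 0.38 ± 0.06 (SE, limma adjusted p = 0.0059). MT-CO3, from the same transcript strand, was at 7512, 7642 and 7456 CPM and 8014, 6947 and 6725 CPM, and did not pass (limma adjusted p = 0.583). The number that rose was 2 with median-of-ratios scaling, and 1 on leaving out HG-Res-SIRT7-Inh replicate 2 or HG-Res replicate 2 or 3, 2 on leaving out HG-Res replicate 1 or HG replicate 1, 3 on leaving out HG replicate 3 and 10 without the outlying pair. The strand setting of the counting is not given in the sources used here, so MT-ND6, encoded on the other strand, cannot be told apart from what lies opposite it. An unadjusted limma p below 0.05 was seen in 4 of 36 tested nuclear genes of oxidative phosphorylation, and in 3167 of all 12854 tested genes. None of the 36 passed limma at the adjusted threshold, or voom on the recovered reads, and their median was 0.05. Of these 36, the number that rose was 1 without the outlying pair, where 1236 of all tested genes rose. Of 16 tested genes of fatty acid oxidation, 2 rose, the nuclear receptor PPARA and the carnitine transferase CPT1A. PPARA was at 4.83, 5.15 and 4.98 CPM and 7.98, 7.51 and 7.23 CPM, and without HG-Res replicate 1 or 3 it lost its call (limma adjusted p = 0.058 and 0.0531), as did CPT1A without any HG-Res library or HG-Res-SIRT7-Inh replicate 2 (limma adjusted p between 0.0608 and 0.102). Rises in that list numbered 0 on leaving out HG-Res replicate 1 or 3, 1 on leaving out HG-Res-SIRT7-Inh replicate 2 or HG-Res replicate 2 and 6 without the outlying pair, and falls 1 on leaving out HG-Res-SIRT7-Inh replicate 1 or 3 and 1 without the outlying pair.

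CDKN1A, the cell cycle inhibitor p21, was at 74.1, 77.4 and 82.5 CPM in HG-Res and 142, 131 and 97.5 CPM with the inhibitor, a change of 0.64 ± 0.15 (SE, limma adjusted p = 0.0332). PMAIP1, the apoptosis activator NOXA, was at 104, 94.5 and 93.4 CPM and 45.8, 59.1 and 56.2 CPM, a change of -0.85 ± 0.17 (SE, limma adjusted p = 0.02). Leaving out any HG-Res library ended the call of CDKN1A, as did leaving out HG replicate 1 or 3 or HG-Res-SIRT7-Inh replicate 2 (limma adjusted p between 0.0539 and 0.134). PMAIP1 lost its call without any HG-Res library or HG-Res-SIRT7-Inh replicate 2 (limma adjusted p between 0.0507 and 0.0945). Of 17 tested heat shock genes 1 rose, where 1.88% of all tested genes rose. It was HSPA1B, at 95.4, 101 and 94.2 CPM and 152, 142 and 163 CPM. Its near-identical neighbour HSPA1A, at 30.4, 32.1 and 33.2 CPM and 42.5, 41.3 and 38.9 CPM, did not pass, and the sharing of reads between them is uncertain. HSPA1B lost its call without HG-Res replicate 1 or 3 (limma adjusted p = 0.0508 and 0.0535), while HSPA1A passed without HG-Res-SIRT7-Inh replicate 3 (limma adjusted p = 0.0349). Rises among the heat shock genes numbered 0 on leaving out HG-Res replicate 1 or 3. They numbered 2 on leaving out HG-Res-SIRT7-Inh replicate 1 or 3 and 2 without the outlying pair, and falls 1 without that pair. Over all 12854 tested genes, 1236 rose and 1176 fell without the outlying pair.

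None of the 7 sirtuin genes passed limma over all libraries at the adjusted threshold, or with voom on the recovered reads. SIRT1, SIRT4 and SIRT6 had an unadjusted limma p below 0.05, as did 3167 of all 12854 tested genes. SIRT7, the labelled target, was at 56.2, 57.2 and 55.4 CPM in HG-Res and 53.4, 54.0 and 37.7 CPM with the inhibitor, a log2 difference of -0.23 ± 0.15 (SE, limma adjusted p = 0.336). SIRT2 was at 59.8, 59.7 and 56.1 CPM and 69.0, 61.6 and 46.8 CPM, with overlap and a change of 0.00 ± 0.15 (SE, limma adjusted p = 0.991). SIRT1 was at 38.9, 32.7 and 30.3 CPM and 38.5, 51.9 and 71.7 CPM, a change of 0.62 ± 0.24 (SE, limma adjusted p = 0.158). Replicate 3 of the inhibitor group was the lowest of the 6 libraries for SIRT7 and the highest for SIRT1. SIRT6, a chromatin-bound deacylase, was at 34.2, 34.5 and 30.6 CPM and 29.2, 26.9 and 15.8 CPM, a change of -0.49 ± 0.22 (SE, limma adjusted p = 0.201), again with replicate 3 lowest. SIRT4, a mitochondrial member, was at 4.04, 4.36 and 3.92 CPM and 5.70, 5.04 and 5.81 CPM without overlap, and its change of 0.35 ± 0.10 (SE, limma adjusted p = 0.0764) missed the threshold, but passed without the outlying pair (limma adjusted p = 0.0387). SIRT3 and SIRT5, both mitochondrial, had changes of 0.00 ± 0.12 and -0.03 ± 0.11 (SE; limma adjusted p = 0.987 and 0.877). SIRT1 passed the test without HG-Res-SIRT7-Inh replicate 1 (limma adjusted p = 0.0459), and over all alternatives its adjusted p lay between 0.035 and 0.37. Messenger levels do not report the activity of an enzyme.

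NMNAT1, the nuclear enzyme that completes NAD synthesis, was the 1 member that rose of 16 tested genes of sirtuins and NAD, where 1.88% of all tested genes rose. It was at 12.9, 14.9 and 14.5 CPM in HG-Res and 22.3, 20.2 and 24.4 CPM with the inhibitor, a log2 difference of 0.62 ± 0.11 (SE, limma adjusted p = 0.00982), and lost its call without HG-Res replicate 1 (limma adjusted p = 0.0629). The number that rose was 0 on leaving out HG-Res replicate 1, 2 on leaving out HG-Res-SIRT7-Inh replicate 1 and 3 without the outlying pair. NAMPT, the rate-limiting enzyme of NAD salvage, was at 87.2, 75.1 and 73.8 CPM and 63.7, 87.4 and 128 CPM, a wide spread with no call (limma adjusted p = 0.648).

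**Figure D4:**
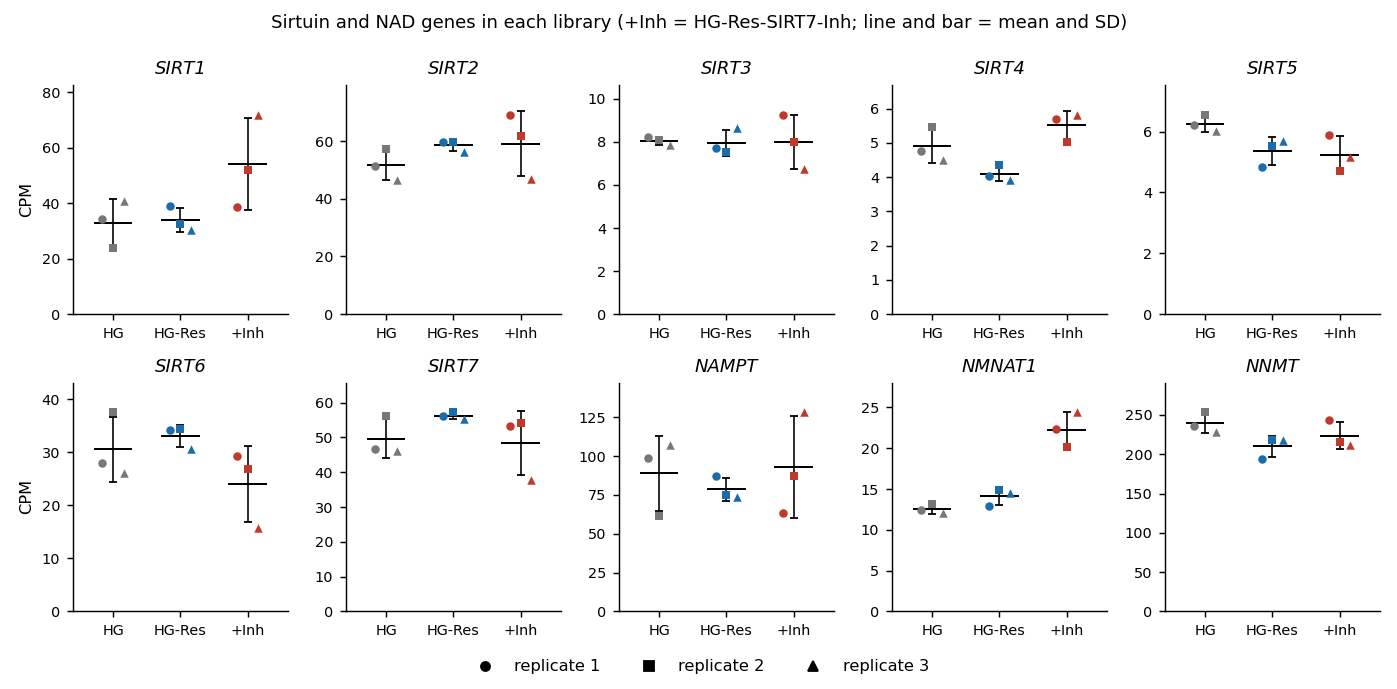
Level in CPM of the 7 sirtuin genes and of NAMPT, NMNAT1 and NNMT in each library of HG-Res-SIRT7-Inh (+Inh), HG-Res and HG, with the mean and SD of 3 libraries. NMNAT1 alone passed the test between HG-Res and HG-Res-SIRT7-Inh, and replicate 3 of the inhibitor group is the highest of all libraries for SIRT1 and the lowest for SIRT6 and SIRT7.

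Lists close to the known roles of SIRT7 and SIRT2 were examined in the same way. Of 31 tested genes of RNA polymerase I and ribosome assembly, 2 fell and none rose, where 4.19% of all tested genes fell. A negative change was seen in 24 of the 31 and in 5782 of all 12854, and the median was -0.27. Lower replicate values without overlap were seen in 17 of the 31, against 16.0% of all tested genes. An unadjusted limma p below 0.05 was seen in 15 of the 31, and in 3167 of all 12854. The members that fell were NOP16 and RRP12, both ribosome assembly factors. NOP16 was at 32.2, 36.0 and 34.3 CPM in HG-Res and 22.8, 21.6 and 17.9 CPM with the inhibitor, a change of -0.70 ± 0.11 (SE, limma adjusted p = 0.00735), and lost its call without HG-Res replicate 2 (limma adjusted p = 0.0515). RRP12 lost its call without any HG-Res library, HG replicate 1 or HG-Res-SIRT7-Inh replicate 2 (limma adjusted p between 0.0532 and 0.115). The count of falls was 0 on leaving out HG-Res replicate 2, and 1 on leaving out HG-Res-SIRT7-Inh replicate 2, HG-Res replicate 1 or 3 or HG replicate 1. It was 8 on leaving out HG-Res-SIRT7-Inh replicate 3, 12 on leaving out HG-Res-SIRT7-Inh replicate 1 and 16 without the outlying pair. Of all 12854 tested genes, 732, 942 and 1176 fell without replicate 3, replicate 1 and the outlying pair. UBTF, the factor that opens ribosomal DNA to polymerase I, had means of 59.3 and 52.9 CPM and did not pass. An unadjusted limma p below 0.05 was seen in 1 of the 13 genes of tubulins and their acetylation, and in 3167 of all 12854 tested genes. None of the 13 passed limma at the adjusted threshold, or voom on the recovered reads, and their median was -0.05. Their medians were 0.15, 0.05 and -0.44 in inhibitor replicates 1, 2 and 3, so the replicates differed in direction. Rises numbered 2 on leaving out HG-Res-SIRT7-Inh replicate 3 and 2 without the outlying pair, where 443 and 1236 of all tested genes rose.

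The remaining lists held few or no calls. No gene passed limma among 28 of sterol and fatty acid synthesis, 6 of the aryl hydrocarbon receptor, which resveratrol is known to antagonise, and 5 of the glucose sensor MondoA, and none with voom on the recovered reads. At an unadjusted limma p below 0.05 there were 2, 1 and 2, in that order, and 3167 among all 12854 tested genes. The MondoA targets nonetheless had the highest list median, 0.41, with 0.10, 0.49 and 0.72 in inhibitor replicates 1, 2 and 3. Rises among the MondoA targets numbered 2 on leaving out HG-Res-SIRT7-Inh replicate 1 and 1 without the outlying pair. In sterol and fatty acid synthesis, rises numbered 1 on leaving out HG-Res-SIRT7-Inh replicate 1 and 1 without the outlying pair, and falls 2 without the outlying pair. In the aryl hydrocarbon receptor list, falls numbered 1 on leaving out HG-Res-SIRT7-Inh replicate 1 and 1 without the outlying pair. Of 24 tested genes each, 1 fell among the NRF2 antioxidant genes (AKR1C1) and 1 among those of autophagy and the lysosome (CTSB), each close to the 4.19% of all tested genes that fell. AKR1C1 lost its call without any HG-Res library (limma adjusted p between 0.0508 and 0.086), and CTSB without HG-Res-SIRT7-Inh replicate 2 or any HG-Res library or HG replicate 1 or 3 (limma adjusted p between 0.0592 and 0.151). Falls among the NRF2 genes numbered 0 on leaving out any HG-Res library and 2 without the outlying pair, and rises 1 on leaving out HG-Res-SIRT7-Inh replicate 1, 2 on leaving out HG-Res-SIRT7-Inh replicate 3 and 4 without the outlying pair. Falls among the autophagy genes numbered 0 on leaving out HG-Res-SIRT7-Inh replicate 2 or any HG-Res library or HG replicate 1 or 3 and 2 on leaving out HG-Res-SIRT7-Inh replicate 1. Across the lists, inhibitor replicate 3 often gave the most negative median, for NF-kB -0.52 against -0.14 and -0.18 in replicates 1 and 2, and for extracellular matrix -0.49 against -0.17 and -0.23. The interferon list differed in this respect, with replicate 3 the least negative of close values.

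**Figure D5:**
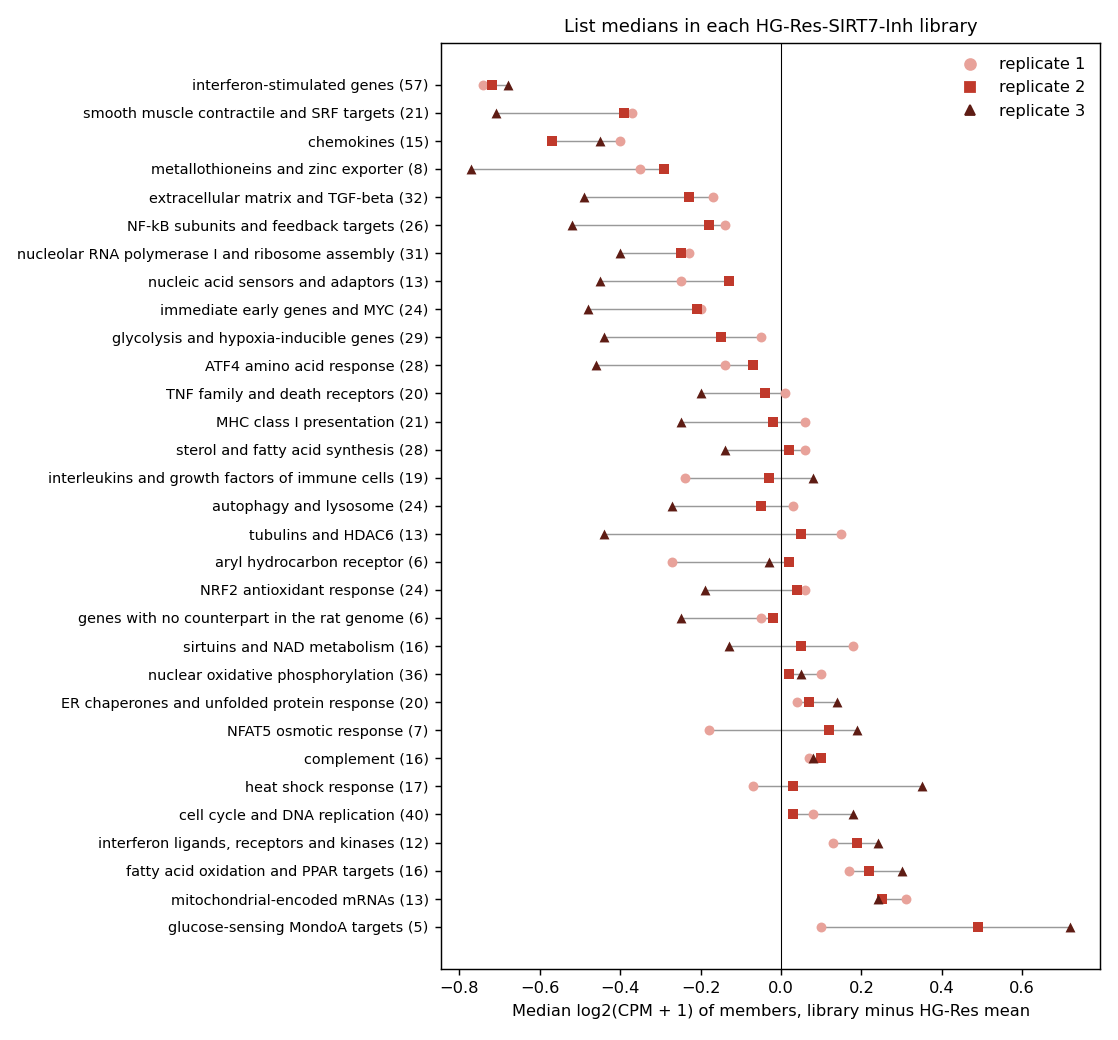
Median change of each list in each HG-Res-SIRT7-Inh library against the mean of the HG-Res libraries, in log2(CPM + 1). The 3 libraries give close values for interferon-stimulated genes (-0.74, -0.72 and -0.68), whereas replicate 3 lies apart for tubulins (-0.44 against 0.15 and 0.05).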

How the data were processed

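RNA-seq libraries of HG-Res-SIRT7-Inh, HG-Res and HG cells (3 each, 30290000 to 33170000 reads) were compared. Poly(A) RNA was selected with oligo(dT) beads, per the labels' protocols. Reads were trimmed with Trimmomatic and the build is named as rn6, per the submitters' processing notes. Which aligner, counter, annotation and strand setting were used is not given in the sources used here.

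The authors deposited values headed TPM, per the file headers, but these are CPM: each library has the same fixed total and 1 read is worth the same in every gene. In the steps of these deposited CPM values, 100% were whole reads within a rounding of 0.005 CPM, against 32.7% to 39.1% at a wrong total. The authors' deposited q-values served as 1 alternative, in which their deposited log2 fold changes gave the direction. Those fold changes were not used otherwise, and the deposited p-values were not used. All of a library's values were identical between the tables that hold it.

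Changes were tested with limma 3.58.1 in R 4.3.3 on log2(CPM + 1), which understates changes of low genes, in 1 fit of 9 libraries with an intensity trend. Genes needed at least 0.5 CPM in at least 3 libraries. Benjamini-Hochberg adjusted p-values were called at 0.05. The main fit was tested on simulated data with independent noise and the same spread in every group. The real groups differ in spread and share deviations, so that test does not give the error rate here. No count model was run on the recovered reads, which were analysed with voom only. A search of promoters for motifs was not run, since the reference tables used here hold rat genes while the identifiers are human. Alternatives covered scaling, filters, pseudocount, the samples fitted, a replicate block, weights, voom and each library left out.

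The members and lists were chosen with earlier results of these data known. Named genes are the 14 largest falls and the 10 largest rises with a name, no overlap of replicates and a level of 1 CPM or more in whichever group was higher, up to 4 called members of each list, and regulators a reader would look for. ISG15, IFIT1, IFIT2, IFIT3, CXCL12, FN1, JUN, ATF4, ACTB, ACTG1, ID3, FOS, EGR1, CDKN1A and other members beyond these were named after their values were seen. Gene symbols were written by hand for 879 identifiers (4.34% of rows) from knowledge of the human annotation, some of them after large changes were seen. All 879 were found, and the rows of each of the 24 chromosomes formed 1 block. That check cannot find every wrong name. Some genes that the rules name, and 1 list, are not reported here.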

Additional observations from a re-analysis of the deposited data

How the results depend on the processing

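The main count was 780 genes (242 rose, 538 fell). Fitting the groups of the comparison alone gave 414 (96 rose, 318 fell). Weights per group gave 426 (75 rose, 351 fell). Leaving out both HG-Res-SIRT7-Inh replicate 3 and HG replicate 2 gave 2412 (1236 rose, 1176 fell). A 2-fold minimum gave 132 (13 rose, 119 fell). In the authors' deposited table, 1145 genes had q-values below 0.05 (437 higher, 708 lower). Leaving out 1 library at a time gave 276 to 1778 genes, with 42 to 836 that rose and 228 to 942 that fell. The share of calls that were falls was 69% as reported, and 76.4% with median-of-ratios scaling (192 rose, 621 fell), which kept 730 of the 780 calls. On leaving out 1 library it ranged from 53% (inhibitor replicate 1 out) to 84.8% (HG-Res replicate 1 out), and it stood at 48.8% with both of the libraries above left out and at 52.7% in the compared groups alone with a replicate block. Voom on the recovered reads gave 745 genes (220 rose, 525 fell). The causes of these differences were not tested.

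The replicate numbers did not pair the libraries of the comparison: the correlations of same-numbered deviations were -0.32, 0.04 and -0.05, and not every library correlated best with its own number. With the replicate block, 649 genes were called (170 rose, 479 fell), of which 604 were among the 780. In the compared groups alone with a replicate block, added after seeing the data, 1118 were called (529 rose, 589 fell).

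Of 148 genes examined under 19 alternatives, 112 were called as reported, 58 of these kept the call in every alternative that tested them and 54 lost it at least once. ACTN2, among those that kept it, was tested in 18 of the 19. None of the called genes reversed direction. Many of the 148 were chosen for large called changes in these same libraries, so kept calls and directions are no independent evidence. The 2-fold minimum and the authors' q-values were not among the 19. Genes under the filter were not tested. Precision is limited by the 3 libraries in each group and by the wide spread among those of HG-Res-SIRT7-Inh.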

Other observations

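Further genes outside the lists, chosen after their values were seen, showed changes that kept the call under all 19 alternatives. PSG1, a pregnancy-specific glycoprotein with near-identical family members, was at 8.97, 8.54 and 8.12 CPM in HG-Res and 1.28, 1.70 and 1.52 CPM in HG-Res-SIRT7-Inh, a log2 difference of -1.94 ± 0.10 (SE, limma adjusted p = 6.73e-06). TNC, the matrix protein tenascin C, was at 129, 133 and 131 CPM and 43.6, 38.5 and 31.9 CPM, a change of -1.77 ± 0.12 (SE, limma adjusted p = 3.78e-05). KRT17, a keratin of stressed epithelium, was at 9.38, 10.5 and 7.40 CPM and 3.22, 2.05 and 1.35 CPM, a change of -1.68 ± 0.21 (SE, limma adjusted p = 0.00203). In each of these the inhibitor libraries lay below all HG-Res libraries. CH25H, the cholesterol 25-hydroxylase and a known interferon target, was at 7.03, 5.06 and 4.51 CPM and 1.22, 1.06 and 0.86 CPM, a change of -1.66 ± 0.17 (SE, limma adjusted p = 0.000476). G0S2, an inhibitor of the lipase ATGL, changed by -1.63 ± 0.16 (SE, limma adjusted p = 0.000407), and TMEM158, a membrane protein induced by RAS, by -1.81 ± 0.19 (SE, limma adjusted p = 0.000676). SESN3, a sestrin and FOXO target, went the other way, at 1.24, 1.04 and 0.88 CPM and 2.41, 3.11 and 3.53 CPM, a change of 0.96 ± 0.14 (SE, limma adjusted p = 0.00463). SHBG, the sex hormone binding globulin, rose from 0.62 ± 0.235 to 2.13 ± 0.101 CPM (SD, n = 3; limma adjusted p = 0.00159).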
